A study of Mus musculus with 4 samples.

Results

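The nuclear receptors are transcription factors that are switched by small molecules such as steroid hormones, retinoic acid, thyroid hormone, vitamin D, oxysterols and fatty acids. Most bind DNA at short half-sites, as homodimers, as single proteins or as partners of the retinoid X receptors, and recruit corepressors or coactivators. In the mammary gland the estrogen and progesterone receptors are known for driving ductal growth and side-branching, while other members act as sensors of lipids, as parts of the circadian clock or as orphan receptors without a settled ligand. A list of 45 mouse genes of this family was taken, by gene symbol, out of the 18193 genes that the array reads with a single symbol, and 43 of the 45 had such a probe set, Nr1h2 and Nr2e3 being the exceptions. Each gene is given by 1 probe set, the one with the highest mean over the 4 arrays among its probe sets, and the 43 genes had 114 probe sets in all.

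Deaf-1 is a DNA-binding transcription factor, and the experiment asked which genes change when it is returned to mammary epithelial cells that lack it. The cells came from mammary glands of Deaf-1-/- female mice aged 8 weeks and were immortalized with a retrovirus for the HPV16 E6/E7 proteins, so all 4 samples carry the null allele and the viral proteins. The study's methods speak of mice and its results of a single mouse, so it is not settled whether the clones share a donor. Cells of clone E1 and of clone C1 received either a Deaf-1 retrovirus (the Deaf-1 group) or the empty retrovirus (the control group), with 48 hours of selection in puromycin. RNA of each clone with each retrovirus was read on 1 Affymetrix mouse genome array, giving 2 arrays per group and 2 arrays per clone. The sample titles begin with e or c, which was read as clone E1 or C1, the names given in the protocol. Each clone is a single clone, so a difference between E1 and C1 belongs to these clones, and nothing in the labels gives a second culture of any sample. Values are log2 intensities made with RMA, in which 1 unit is a doubling of signal, and values of different probe sets are not on a common scale. A probe set is called above background when its mean exceeds 3.83, the 95th percentile of the means of 44 probe sets for olfactory receptor genes.

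Across the series, the array medians lay between 3.77 and 3.87, and 49.2% to 50.8% of probe sets were above background on an array. Arrays of the same clone correlated at 0.992 (E1) and 0.994 (C1) across all probe sets, and arrays of different clones at 0.976 to 0.983. Deaf1 itself, read by 1448446_at, had 6.25 in E1 and 6.73 in C1 with the Deaf-1 retrovirus, against 4.91 and 5.01 with the empty one. The labelled cell type was set against marker lists. Of the 9 luminal epithelial markers 3 were above background (Krt19, Epcam and Cldn3), while Krt8, Krt18 and Cdh1 were not. Of the 8 basal or myoepithelial markers 4 were (Krt5, Trp63, Acta2 and Cnn1), while Krt14 and Krt17 were not. Trp63, at a mean of 4.04, lay below the immune marker Cd3e (4.43), and Krt19 (4.52) and Krt5 (4.56) lay little above it. The Epcam probe set, 1447899_x_at, is of a type whose oligonucleotides can bind other transcripts. All 9 fibroblast markers were above background, among them Col3a1 at a mean of 13.5 and Vim at 12.5. The mean over the fibroblast list was 10.85 and 10.91 on the E1 arrays, against 11.08 and 10.99 on the C1 arrays (Deaf-1 before control). Of the other lists 1 of 4 measured immune, 2 of 4 endothelial and 0 of 3 measured adipocyte markers were above background. Lum (-2.82) and Cnn1 (-1.51) were lower and Pdgfrb (0.83) and Vim (0.62) were higher in E1 than in C1 at an adjusted p under 0.05 from limma. The part of such differences in the receptor values was not tested, and in bulk RNA fewer cells of a type and less RNA per cell cannot be told apart.

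Of the 43 measured receptors, 30 were above background by mean, and 27 of these were above it on all 4 arrays. By the same rule, with 1 probe set per gene, 11730 of all 18193 genes were above background by mean. The 3 with single arrays below it were Rxrg (3 arrays above), Nr1h4 (3) and Nr1h3 (2). The 30 held the progesterone receptor Pgr, the estrogen receptor alpha gene Esr1, the glucocorticoid receptor Nr3c1, Esrra and Esrrb of the estrogen-related receptors, all 6 retinoid receptors, Thra and the vitamin D receptor Vdr. They also held the lipid and bile acid sensors Ppard, Nr1h3, Nr1h4 and Hnf4a, the clock receptors Nr1d1, Nr1d2 and Rora, the orphan receptors Nr2c1, Nr2c2, Nr2f1, Nr2f2 and Nr2f6, all 3 NR4A receptors, Nr5a2 and Nr0b2. The other 13 were below background by mean, namely Esr2, Nr3c2, Esrrg, Thrb, Ppara, Nr1i2, Nr1i3, Hnf4g, Rorb, Nr2e1, Nr5a1, Nr6a1 and Nr0b1. Of these, Nr1i3 and Nr6a1 were above the level on 2 arrays and Nr5a1 on 1, and the remaining 10 on none. A probe set below background does not show that the gene is silent. Nor does one above it show that the gene is expressed, as the level of 3.83 lies within the range of the array medians. The immune marker Cd3e was above it on all 4 arrays, with a mean of 4.43. Rxrg, Nr1h3, Nr1h4, Nr5a2 and Nr0b2, counted among the 30, had lower means than that.

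**Figure D1:**
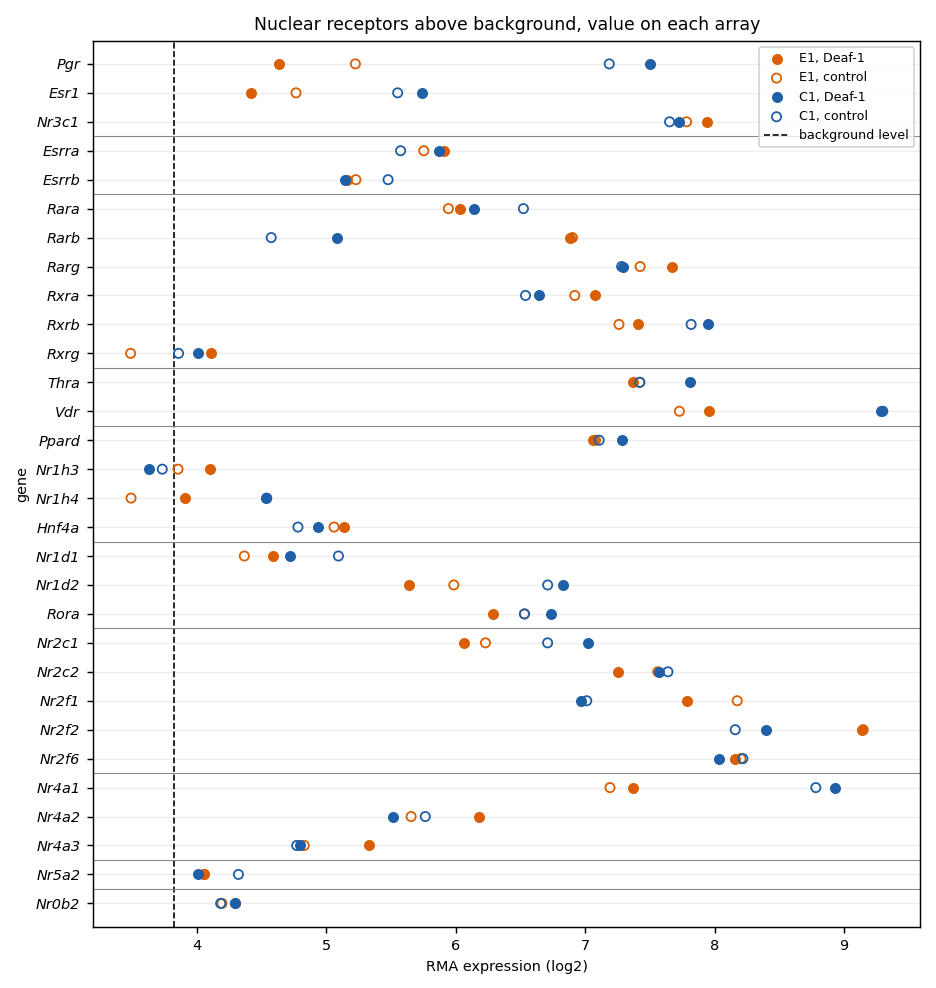
RMA expression (log2, horizontal axis) of the 30 receptors above background on each of the 4 arrays, with filled circles for Deaf-1 and open circles for control, orange for clone E1 and blue for clone C1. The dashed line is the background level of 3.83, and lines across the plot separate the receptor classes. The orange and blue pairs lie apart for Pgr, Rarb, Vdr and Nr4a1, and filled and open circles of the same colour differ by at most 0.62 (Rxrg in E1).

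To ask whether the receptors moved with Deaf-1, the 2 Deaf-1 arrays were compared with the 2 control arrays. None of the 43 receptors reached an unadjusted p under 0.01 in limma, and none had a p under 0.05, beside 74 of all 18193 genes. At the first threshold 0.0275% of all 18193 genes were called, and after Benjamini-Hochberg adjustment 0% were, so a list of 43 genes had little room for a call. With the clone as a block none of the 43 passed 0.01 either, beside 0.044% of all genes. In that fit Nr5a1, a gene below background, was the one receptor under 0.05, with an unadjusted limma p of 0.028. Of all 18193 genes 145 were under 0.05 in it. The median change over the 43 was 0.11, against -0.0068 over all genes with 1 probe set each. Over all 114 probe sets of the receptors it was 0.023, against -0.004 over all probe sets. The changes of the 43 ran from -0.26 (Thrb) to 0.49 (Nr5a1), both genes below background. The Deaf-1 and control arrays did not overlap for 7 of 43 receptors (16.1% of all genes), with Esrra, Rxrg, Nr0b2, Nr1i2 and Nr5a1 higher (8.18%) and Esrrb and Nr2f6 lower (7.94%). Of these Nr0b2, a corepressor without a DNA-binding domain, had the tightest arrays, with 4.30 in E1 and 4.29 in C1 with Deaf-1 against 4.19 and 4.18 in control cells, and a change of 0.11 (standard error 0.14 with the spread limma pools over genes).

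A change of the same sign in both clones was found for 20 of 43 receptors, 12 higher and 8 lower with Deaf-1, where 37.8% of all genes had the same sign, 17.6% higher and 20.2% lower. The remaining 23 did not move the same way, and in 1 of them, Nr5a2, the E1 arrays had equal values. Among receptors above background the largest absolute t was that of Rxrg, a retinoid X receptor that pairs with other members. Its values were 4.11 in E1 and 4.01 in C1 with Deaf-1, against 3.49 and 3.86 in control cells, a change of 0.39 (standard error 0.19) with an unadjusted p of 0.10. Both Deaf-1 arrays lay above both control arrays, although all 4 values were near the background level. Esrra, a regulator of mitochondrial genes, had 5.91 and 5.87 with Deaf-1 and 5.75 and 5.57 in control cells (E1 before C1), which also did not overlap, for a change of 0.23 (standard error 0.15). For Esrrb the change of -0.20 belongs to a probe set of the _x_at type, whose oligonucleotides can bind other transcripts, and its second probe set, 1422986_at, changed by 0.38.

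Pgr and Esr1 are the members most closely tied to ductal growth, and neither moved the same way in the clones. Pgr had 4.63 in E1 and 7.50 in C1 with Deaf-1, against 5.23 in E1 and 7.19 in C1 in control cells, so the change was -0.59 in E1 and 0.32 in C1. Esr1 had 4.42 and 5.74 with Deaf-1 and 4.77 and 5.55 in control cells (E1 before C1), with changes of -0.35 in E1 and 0.19 in C1. For both genes the Deaf-1 and control values overlapped, and the gap between the clones exceeded the change with Deaf-1 in either clone. The glucocorticoid receptor gene Nr3c1 had 7.94 and 7.73 with Deaf-1 and 7.78 and 7.65 in control cells, a change of 0.12 (standard error 0.16).

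**Figure D2:**
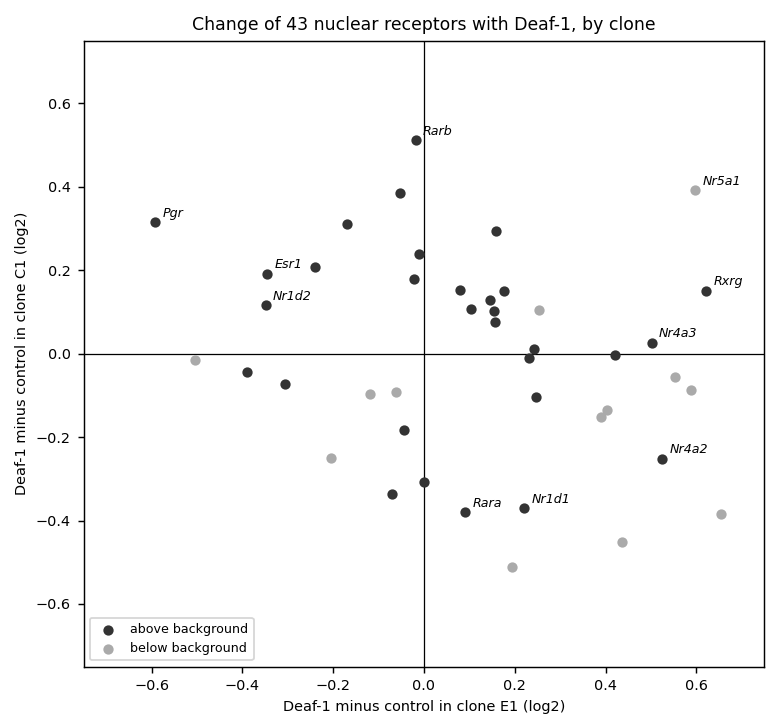
Change with Deaf-1 (Deaf-1 minus control, log2) of the 43 measured receptors in clone E1 (horizontal axis) and in clone C1 (vertical axis), 1 point per gene, dark for genes above background and light for genes below it. The upper right and lower left parts of the plot hold the 20 receptors whose changes had the same sign in the 2 clones. Pgr lies at -0.59 in E1 and 0.32 in C1, and Nr4a2 at 0.53 in E1 and -0.25 in C1.

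The clones differed far more. When the 2 arrays of E1 were compared with the 2 of C1, 8 of 43 receptors passed an adjusted p under 0.05 in limma, with Pgr, Nr4a1, Vdr, Esr1 and Nr1d2 lower in E1 and Rarb, Nr2f1 and Nr2f2 higher. Of all 18193 genes 6.76% passed, 3.46% higher and 3.29% lower in E1, and of the 11730 genes above background 10.1%, which is where all 8 lie. At an unadjusted p under 0.01 there were 11 receptors, with Nr1h4, Nr2c1 and Rxrb added, all lower in E1. The share at this threshold was 12.3% of all genes and 18.1% of genes above background, where all 11 lie. The ranges of the clones did not overlap for 27 of 43 receptors, 14 higher and 13 lower in E1, as was the case for 51.8% of all genes (26% higher and 25.8% lower). Among the 30 receptors above background they did not overlap for 21, against 62% of genes above background. With retrovirus as a block, which leaves 1 residual degree of freedom, none of the 8 kept an adjusted p under 0.05 (0.069 to 0.150). Of all genes 32 or 0.176% passed it. In that fit 9 of 43 receptors, all above background, had an unadjusted p under 0.01. The share was 6.95% of all genes and 10.3% of genes above background. With any 1 array left out, 1 array stands for a clone, so such a fit cannot decide whether the calls hold. The differences of the 8 kept their signs in these fits.

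**Figure D3:**
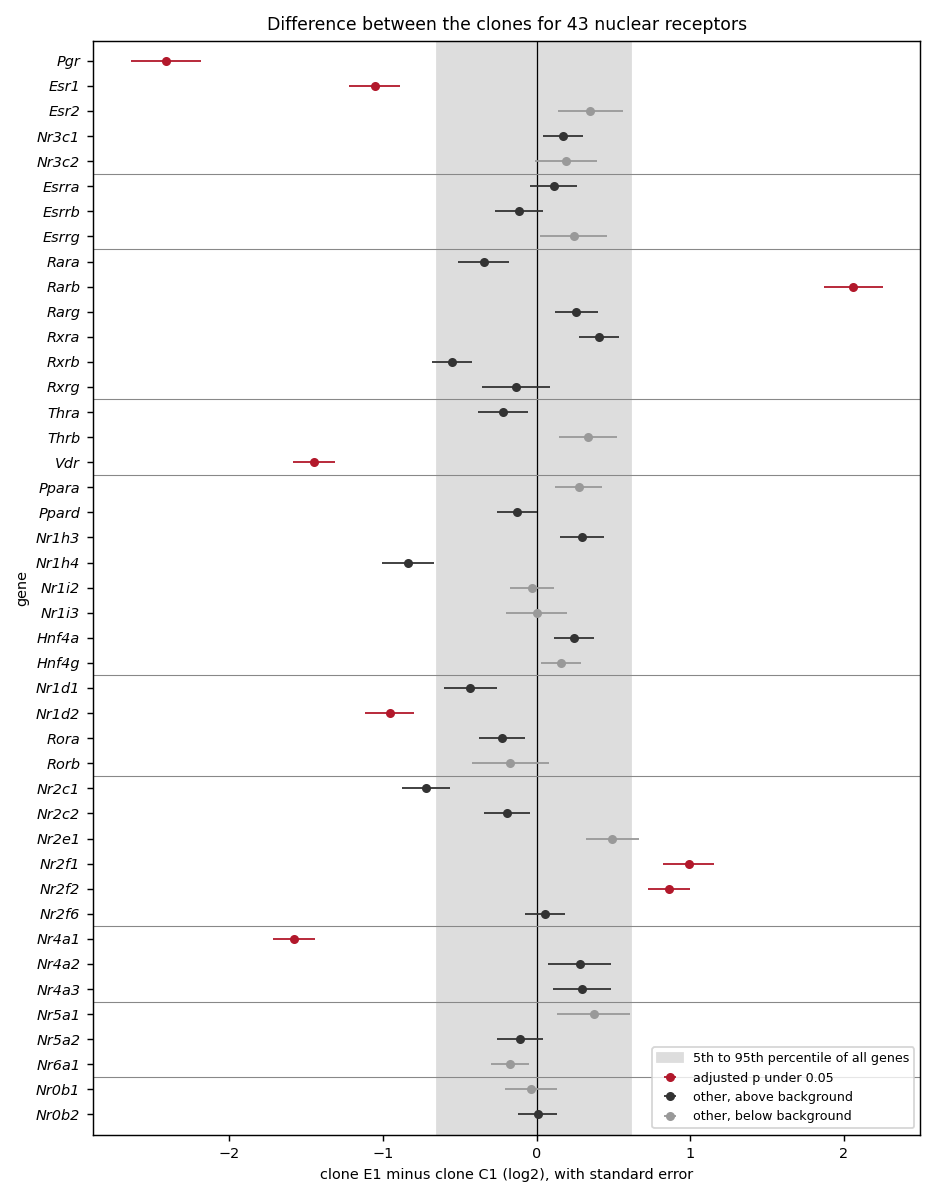
Difference between the clones (clone E1 minus clone C1, log2, with the standard error of the limma fit as bars) for the 43 measured receptors, ordered by class. Red points are the 8 receptors with an adjusted p under 0.05, dark points the others above background and light points those below it, and the grey band spans the 5th to the 95th percentile of all genes (-0.65 to 0.61). Pgr, Nr4a1, Vdr, Esr1 and Nr1d2 lie left of the band, as do Nr1h4 and Nr2c1, and Rarb, Nr2f1 and Nr2f2 right of it.

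Among the steroid receptors, Pgr differed most between the clones. It had 4.63 (Deaf-1) and 5.23 (control) in E1, against 7.50 and 7.19 in C1. The E1 mean was 4.93 ± 0.42 and the C1 mean 7.34 ± 0.22 (SD, n = 2 arrays each), a difference of -2.41 (standard error 0.23) or 5.33-fold, with an adjusted p of 0.0082 and 0.086 with retrovirus as a block. Both E1 arrays lay well below both C1 arrays. The remaining Pgr probe sets, 1455772_at and 1421444_at, were below background and differed by -0.44 and -0.59.

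Esr1, whose protein is the main inducer of Pgr in the mammary gland, was lower in the same clone. It had 4.42 (Deaf-1) and 4.77 (control) in E1, against 5.74 and 5.55 in C1, a difference of -1.05 (standard error 0.17), with an adjusted p of 0.028 and 0.145 with the block. The clones did not overlap. Its other 2 probe sets were below background and differed by -0.33 and 0.25, and with the mean of all its probe sets in place of the brightest the difference of -0.38 lost its call (adjusted p = 0.093). Nr3c1 did not pass the test. It had 7.94 and 7.78 in E1 and 7.73 and 7.65 in C1, a difference of 0.17 (standard error 0.13), and its 4 further probe sets above background differed by 0.15 to 0.36 in the same direction without a call. One of them, 1457635_s_at, was uneven, with 4.67 and 6.02 in E1 and 5.36 and 4.61 in C1.

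The retinoid receptors were all above background, and Rarb was the one that passed the adjusted threshold. Rarb encodes a retinoic acid receptor that is itself a classical retinoic acid target. It had 6.88 (Deaf-1) and 6.90 (control) in E1, against 5.09 and 4.57 in C1, a difference of 2.06 (standard error 0.19) or 4.18-fold, with an adjusted p of 0.0079 and 0.072 with the block. The E1 arrays were almost equal and both lay above the C1 arrays, which differed from each other by 0.51. It has a single probe set on the array. The other retinoic acid receptors behaved otherwise. Rara had 6.03 and 5.94 in E1, against 6.14 and 6.52 in C1, a difference of -0.34 (adjusted p = 0.33). Rarg had 7.67 and 7.42 in E1, against 7.29 and 7.28 in C1, a difference of 0.26 (adjusted p = 0.39). Both were without a call, although the clones did not overlap for either.

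Of the retinoid X receptors, the shared partners of many members, Rxrb was lower in E1 at the unadjusted threshold. It had 7.41 (Deaf-1) and 7.26 (control) in E1, against 7.95 and 7.82 in C1, a difference of -0.55 (adjusted p = 0.080). Rxra lay the other way, with 7.07 and 6.92 in E1, against 6.64 and 6.54 in C1, a difference of 0.41 (adjusted p = 0.16). Neither passed after adjustment, and a second Rxra probe set, 1425762_a_at, differed by 0.057. Rxrg had 4.11 and 3.49 in E1 and 4.01 and 3.86 in C1, and the clones overlapped.

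The letters before 3 of the start sites are shown because retinoic acid, other nuclear receptors and fast signals act on such genes through known half-sites and response elements. They are the 100 bases upstream of the annotated start in RefSeq (GRCm38.p6), of the 39 measured receptors with an entry. For Rarb (chr14:16575477-16575576, minus strand) the capitals mark a direct repeat of nuclear receptor half-sites 5 bases apart, the arrangement known for retinoic acid receptors. For Nr1d2 (chr14:18239107-18239206, minus strand) they mark AGGTCA, the half-site that many nuclear receptors read. For Nr4a1 (chr15:101266746-101266845, plus strand) they mark 2 copies of TGCGTCA, a variant of the cyclic AMP response element.
Rarb: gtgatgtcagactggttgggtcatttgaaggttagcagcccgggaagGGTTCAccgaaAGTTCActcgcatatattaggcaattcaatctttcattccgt
Nr1d2: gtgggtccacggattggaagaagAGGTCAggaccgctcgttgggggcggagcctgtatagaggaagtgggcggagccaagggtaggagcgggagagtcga
Nr4a1: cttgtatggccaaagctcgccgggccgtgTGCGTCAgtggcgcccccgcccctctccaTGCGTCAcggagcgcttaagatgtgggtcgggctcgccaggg

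The repeat was searched on both strands as a pair of half-sites, each being AGGTCA or AGTTCA or GGGTCA or GGTTCA, with 5 bases between them. It was present in 0.0974% of 32851 promoters (250 bases before to 50 after the start) and, among the 39 receptors, in Rarb alone. With 4 bases between, the arrangement known for thyroid hormone receptors, the repeat was in none of the 39 and in 0.0822% of all. AGGTCA on either strand was in 10 of the 39 and in 16.3% of all promoters. TGCGTCA was in Nr4a1 alone of the 39, with 4 copies in its full window, and in 2.12% of all. TTCG, the core known for DEAF-1 binding, was in 19 of the 39 and in 44.7% of all promoters, and the copy in Rarb, on the antisense strand, lies inside the repeat. CACGTG, the E-box of the clock factors, was in 5 of the 39 and in 7.15% of all. The receptor counts are of genes with a match in any of their promoters, while the percentages are of single promoters. Some receptors, such as Rara and Nr6a1, have several promoters and so more room for a match, and the counts and percentages are not like for like. These matches describe letters and not bound sites.

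Vdr was lower in E1 by both of its probe sets. The vitamin D receptor controls calcium transport and differentiation of epithelia. The brighter probe set had 7.96 (Deaf-1) and 7.73 (control) in E1, against 9.29 and 9.30 in C1, a difference of -1.45 (standard error 0.14) or 2.73-fold, with an adjusted p of 0.0081 and 0.086 with the block. The second, 1418176_at, had 7.36 and 7.30 in E1, against 8.65 and 8.63 in C1, a difference of -1.31 (adjusted p = 0.0081). On both probe sets the arrays of a clone differed by at most 0.23 and the clones did not overlap. Thra, a receptor for thyroid hormone, had 7.37 and 7.42 in E1, against 7.81 and 7.42 in C1, without a call.

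In the lipid and xenobiotic sensors the adjusted threshold was passed by none of 8. Nr1h4, the bile acid receptor, was lower in E1 at the unadjusted threshold, with 3.91 (Deaf-1) and 3.49 (control) in E1, against 4.54 on both C1 arrays, a difference of -0.84 (adjusted p = 0.053). One E1 array was below background. Ppard, a fatty acid sensor, and Hnf4a, a regulator of liver and gut genes, differed by -0.13 and 0.24. The liver X receptor gene Nr1h3 differed by 0.30, at values of 4.10 and 3.86 in E1, against 3.63 and 3.73 in C1, which straddle the background level. The remaining 4, below background, differed by -0.03 (Nr1i2) to 0.27 (Ppara).

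Of the clock receptors, which repress (Nr1d1, Nr1d2) or activate (Rora, Rorb) the core clock genes, Nr1d2 was lower in E1. It had 5.64 (Deaf-1) and 5.99 (control) in E1, against 6.83 and 6.71 in C1, a difference of -0.96 (standard error 0.16), with an adjusted p of 0.032 and 0.150 with the block. The clones did not overlap, and its second probe set, below background, differed by -0.67. Nr1d1 had 4.59 and 4.37 in E1, against 4.72 and 5.09 in C1, a difference of -0.43 that did not pass (adjusted p = 0.25). Rora was read by 9 probe sets above background, of which none had a call, the brightest differing by -0.22.

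The COUP receptors Nr2f1 and Nr2f2, orphan receptors known for their part in mesenchymal and venous identity, were both higher in E1. Nr2f1 had 7.78 (Deaf-1) and 8.17 (control) in E1, against 6.97 and 7.01 in C1, a difference of 0.99 (standard error 0.17), with an adjusted p of 0.032 and 0.135 with the block. Nr2f2 had 9.14 and 9.15 in E1, against 8.40 and 8.16 in C1, a difference of 0.86 (standard error 0.14), with an adjusted p of 0.029 and 0.143 with the block. For both genes the clones did not overlap. All 4 Nr2f2 probe sets above background were higher in E1, the other 3 by 0.57 to 0.89, 1 of them with a call, and with the mean of all 6 in place of the brightest the difference was 0.55 (adjusted p = 0.064). Their relative Nr2f6 differed by 0.054.

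The testicular receptor gene Nr2c1 was lower in E1 at the unadjusted threshold, with 6.06 (Deaf-1) and 6.23 (control) in E1, against 7.02 and 6.71 in C1, a difference of -0.72 (adjusted p = 0.064). Its other 2 probe sets above background differed by -0.34 and -0.40 in the same direction. Nr2c2, which forms heterodimers with it, differed by -0.20.

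The NR4A receptors are immediate early genes that act without a known ligand. Nr4a1 had 7.37 (Deaf-1) and 7.19 (control) in E1, against 8.93 and 8.78 in C1. The E1 mean was 7.28 ± 0.12 and the C1 mean 8.86 ± 0.11 (SD, n = 2 arrays each), a difference of -1.58 (standard error 0.14) or 2.98-fold, with an adjusted p of 0.0066 and 0.069 with the block. The clones were well apart, and Nr4a1 has a single probe set.

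Its relatives depended on the probe set. The brightest Nr4a2 probe set, 1433422_at, had 6.18 and 5.66 in E1 and 5.51 and 5.77 in C1, so that the clones overlapped and the difference was 0.28 (adjusted p = 0.55). Of the 5 dimmer probe sets above background, all were lower in E1 and 3 had an adjusted p under 0.05. The most different, 1455034_at, had 3.54 and 4.23 in E1, against 5.48 and 5.13 in C1, a difference of -1.42 (adjusted p = 0.039). The others called were 1447863_s_at (-1.10, adjusted p = 0.044) and 1450750_a_at (adjusted p = 0.041), on which both E1 arrays were below background, so that it was at least 1.32-fold lower in E1 when the C1 mean is set against the background level. Nr4a3 likewise had a difference of 0.30 with its brightest probe set, at 5.33 and 4.83 in E1 and 4.80 and 4.77 in C1, and of -1.19 with 1438796_at, at 3.62 and 4.51 in E1, against 5.31 and 5.19 in C1 (adjusted p = 0.082). No direction is therefore given for Nr4a2 or Nr4a3.

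In the classes not yet described no member passed either threshold between the clones. Esrra, Esrrb, Nr5a2 and Nr0b2, all above background, differed by 0.11, -0.12, -0.11 and 0.008. Of the members below background the largest difference was that of Nr2e1, 0.49 (adjusted p = 0.19). Over all 43 receptors the median absolute difference between the clones was 0.27, against 0.19 over all genes, and the median absolute change with Deaf-1 was 0.14, against 0.092. For receptors above background these medians were 0.30 and 0.13, against 0.25 and 0.086 for all genes above background. Across the 71 probe sets not used for a gene's value, 34 were above background, and 22 of those had the sign of the chosen probe set between the clones.

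Genes around the receptors were read from 9 lists, which were made with earlier results of these data known. Of 94 measured list genes that are not receptors, none had an unadjusted p under 0.01 with Deaf-1. The gene with the largest absolute t in its list was Tbl1xr1 (corepressors), Ncoa3 (coactivators), Fkbp4 (chaperones), Errfi1 (glucocorticoid targets), Tnfsf11 (estrogen and progesterone targets), Cyp26a1 (retinoid list), Hr (thyroid hormone and vitamin D list), Lpcat3 (liver X receptor and fatty acid list) and Hlf (clock). Hr, a corepressor of the thyroid hormone and vitamin D receptors, had 4.94 in E1 and 4.71 in C1 with Deaf-1, against 4.25 and 4.56 in control cells, a change of 0.42 (standard error 0.19). The Deaf-1 arrays lay above the control arrays, without a call. Between the clones 17 of the 94 passed an adjusted p under 0.05, 13 higher and 4 lower in E1, beside 3.46% and 3.29% of all genes, and none did with retrovirus as a block.

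Retinoid handling held 5 higher and 1 lower of 14 measured genes at an adjusted p under 0.05 in limma, Rarb included. Of all genes 3.46% were higher and 3.29% lower at that threshold, and none of the 14 passed it with retrovirus as a block. Aldh1a2, which makes retinoic acid, had 6.78 (Deaf-1) and 6.88 (control) in E1, against 4.55 and 4.45 in C1, a difference of 2.33 (adjusted p = 0.0022, block 0.053). The target gene Tgm2, a transglutaminase, differed by 1.81 and the binding protein gene Crabp1 by 1.07, while Stra6, which takes up retinol, differed by 0.73. Rarres2, which encodes the chemoattractant chemerin, was the one lower in E1, at -1.25, with a like difference on 1 further probe set above background. The degrading enzymes Cyp26a1 and Cyp26b1 were below background. Aldh1a1, at -0.62, and Rdh10, at -0.12, did not pass.

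In the liver X receptor and fatty acid sensor targets 5 of 10 were higher in E1 at an adjusted p under 0.05 in limma. None was lower at that threshold, beside 3.46% of all genes higher and 3.29% lower. Abca1, a cholesterol exporter, had 7.42 (Deaf-1) and 7.84 (control) in E1, against 5.94 and 4.94 in C1, a difference of 2.19. The exporter gene Abcg1 had 5.93 and 6.02 in E1, against 3.65 and 3.72 in C1, where both arrays were below background, so that the E1 mean set against the background level gives at least 4.43-fold higher. Mylip, which promotes loss of the LDL receptor, Scd1, a fatty acid desaturase, and Plin2, a lipid droplet protein, differed by 1.10, 0.99 and 0.77. Srebf1, at -0.43, and Pdk4, at -0.77, did not pass.

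The glucocorticoid targets were split, with 3 lower and 1 higher in E1 of 13 at an adjusted p under 0.05 in limma. Of all genes 3.29% were lower and 3.46% higher at that threshold, and 10.1% of genes above background passed it either way. Dusp1, a phosphatase of MAP kinases that is also an immediate early gene, had 9.12 (Deaf-1) and 8.81 (control) in E1, against 10.9 and 10.6 in C1, a difference of -1.80 (adjusted p = 0.0082). The kinase gene Sgk1 and the transcription factor gene Cebpd differed by -1.50 and -1.26. Mt1, a metallothionein, was higher by 0.65 with a probe set of the _s_at type, and its probe set 1451612_at differed by -0.38. Fkbp5 and Tsc22d3, further glucocorticoid targets, differed by 0.23 and -0.11 without a call.

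Of the 11 measured estrogen and progesterone targets, Ccnd1 was higher and Pgr lower in E1 at an adjusted p under 0.05 in limma. Ccnd1, the cyclin D1 gene, had 6.86 (Deaf-1) and 7.04 (control) in E1, against 4.54 and 4.53 in C1, a difference of 2.42 (adjusted p = 0.0022, block 0.053). Its other 2 probe sets also lay higher in E1. Wnt4 and Tnfsf11, targets of the progesterone receptor, differed by -0.46 and -0.12 without a call, Tnfsf11 below background. Of the 18 measured clock genes 3 passed, with Npas2 (1.30) and Per2 (0.94) higher in E1 and Nr1d2 lower, and Arntl (-0.67) and Clock (-0.48) did not. Beside the counts of both lists, 6.76% of all genes passed, and 10.1% of genes above background.

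The corepressors (9 measured), coactivators (14), chaperones (7) and the thyroid hormone and vitamin D list (7) had no call after adjustment. The nearest were the corepressor gene Nrip1 at -0.91 (adjusted p = 0.051) and the coactivator gene Ncoa2 at 0.84 (adjusted p = 0.051). Nrip1, an estrogen-induced gene, had 5.81 and 6.23 in E1, against 7.05 and 6.81 in C1, and the clones did not overlap. Cyp24a1, the vitamin D target that degrades the hormone, had 4.18 (Deaf-1) and 3.70 (control) in E1 and 3.73 and 3.71 in C1, near the background level.

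**Figure D4:**
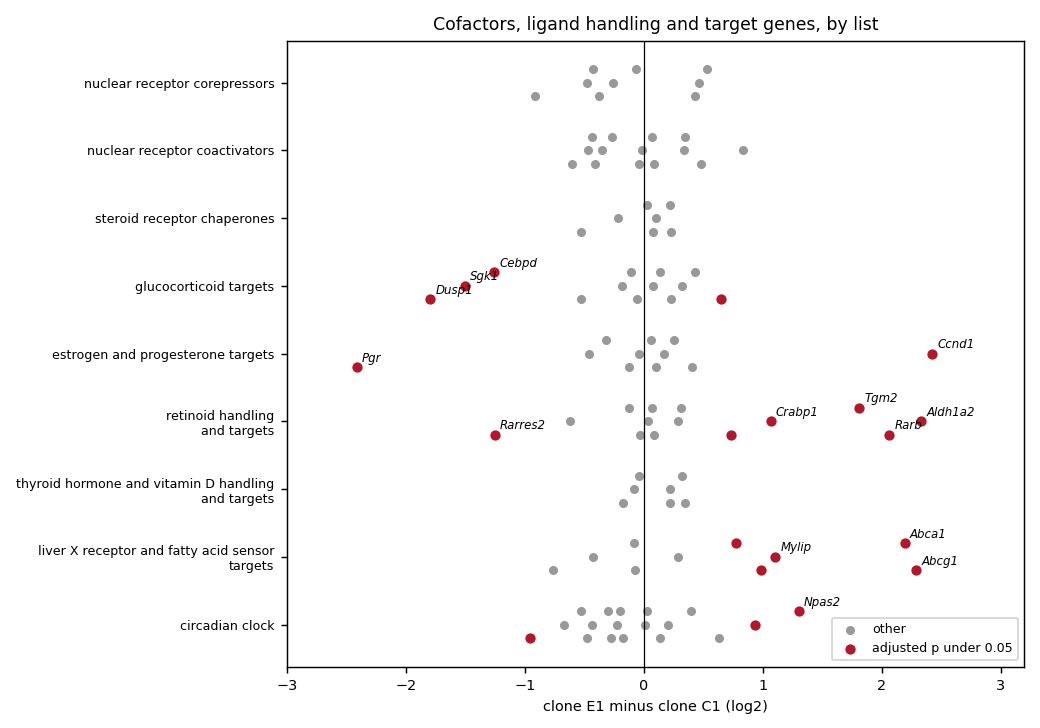
Difference between the clones (clone E1 minus clone C1, log2, horizontal axis) for every measured gene of the 9 lists, 1 point per gene and list, spread vertically within a list for legibility. Red points have an adjusted p under 0.05 and those past 1 unit are named. The retinoid list and the liver X receptor and fatty acid list each hold 5 red points right of 0, and the corepressor, coactivator and chaperone lists hold none.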

How the data were processed

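The authors deposited RMA values, log2 intensities per probe set and array, for 4 Affymetrix mouse genome arrays. RMA and limma are named in the submitters' processing notes without versions. Arrays were grouped by retrovirus as their titles state, and by clone from the first letter of the title (e or c), read as E1 or C1. Of 45101 probe sets, 64 controls were left out, and 45037 were tested without a further filter. Gene symbols came from the platform annotation (34945 probe sets with 1 symbol, 932 with several, 9160 with none), and all 45 receptors matched RefSeq by symbol. No probe-level files, counts or array quality values were used, so precision is limited by the number of arrays, 2 per group.

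Deaf-1 was compared with control and clone E1 with clone C1 by lmFit and eBayes (limma 3.58.1, R 4.3.3), two-sided, and p-values were adjusted by the Benjamini-Hochberg method over all 45037 probe sets. Each fit had 2 residual degrees of freedom, plus 2.56 (Deaf-1) or 3.87 (clone) prior ones. Since both retroviruses were used in the same clones, the pairing comes from the cells. Deviations of same-clone arrays from their group means correlated at 0.54, and a fit with both terms, the replicate block, was run beside the others. Lacking separate cultures, p-values measure the spread between arrays only. The fit was tested on simulated data.

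Receptors, gene lists and rules were chosen with earlier results of these data known. Values on every array were given for receptors above background with p under 0.01 or a difference of 0.5, for Pgr, Esr1, Nr3c1 and the retinoid receptors, and for some others. List genes named were up to 4 per list with the largest called difference between the clones and 1 with the largest t for Deaf-1. Others were added after their values were seen. The alternatives tried comprised the block, the removal of each array, 2 filters on low values, 3 normalizations, 2 prior variances, 2 choices of probe set and 2 other background levels.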

Additional observations from a re-analysis of the deposited data

Results flagged for a closer look

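Pgr and Nr4a2 were above background and changed with Deaf-1 by at least 0.25 in opposite directions in the clones. Pgr differed by -0.5915 in E1 and by 0.315 in C1 between the Deaf-1 and the control array, and Nr4a2 (1433422_at) by 0.525 in E1 and by -0.2522 in C1. With 1 array per clone and retrovirus the difference was not tested. The dimmer Nr4a2 probe set 1455034_at had 3.54 with Deaf-1 and 4.23 with control in E1, and 5.48 with Deaf-1 and 5.13 with control in C1, the opposite direction in both clones.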

How the results depend on the processing

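No receptor was called for Deaf-1 under any alternative run. Over all probe sets that comparison had 5 calls at an unadjusted p under 0.01, 11 with the clone as a block, 2 among probe sets above background, 1 at a mean of at least 6, 25 with an intensity trend and 2 to 47 with an array left out. The 8 receptors called between the clones were 0 with the retrovirus block and 0 to 0 with an array left out, where 1 array stands for a clone, and 8 to 10 of the receptors tested passed otherwise. At an unadjusted p under 0.01 the 11 became 5 to 9 with an array left out. Over all probe sets the 2306 calls became 49 with the block, 3894 at a mean of at least 6, 3909 with the trend and 0 to 0 with an array left out. The 17 list genes became 0 with the block, 26 at a mean of at least 6 and 0 to 0 with an array left out. The 8 receptors kept their signs in every alternative that tested them, but Esr1 and Rarb, with means under 6, were not tested at that filter, and Esr1 and Nr2f2 lost their calls with the mean of all probe sets. The cause was not tested for the filters and the trend.

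Directions turned in a few cases. Mt1 differed between the clones by -0.38 without probe sets of the _x_at and _s_at types. For Deaf-1 minus control, none of which was called, Esrrb became 0.38 and Nr5a2 0.061 without these types, and with the mean of all probe sets Esrrb became 0.047, Nr5a2 0.014, Nr4a3 -0.053, Pgr 0.015 and Nr3c1 -0.072. With an array left out the change ran from -1.57 to 1.30 for Pgr, from -0.74 to 0.58 for Esr1, from -0.68 to 0.90 for Vdr, from -0.92 to 1.41 for Rarb, from -0.63 to 0.96 for Nr4a1 and from -0.0029 to 0.53 for Nr4a3, as the clones are then unequally represented. Receptors above background numbered 33, 28 and 28 with the 90th or 99th percentile or the mean of all probe sets.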
